A study of Mus musculus with 9 samples.

Results

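Processed pseudogenes are copies of spliced messenger RNAs that were written back into the genome, so most lack introns and resemble the coding sequence of a parent gene. Names of the form Gm followed by a number mark predicted mouse genes without another symbol. In the cortex RNA of 3 mouse strains, 73 Gm-named processed pseudogenes were examined of 54532 annotated genes in all. They were chosen by their measured level: a mean of at least 3 FPKM (fragments per kilobase of gene, scaled to library size) over the 9 libraries, leaving out the interval of chromosome 8 from 36.02 to 78.11 Mb. Outside that interval the annotation held 8274 such pseudogenes, of which 2610 had reads but stayed below 3 FPKM and 5591 had no read in any library. A further 132 lay in the interval and were left out.

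The samples were brain cortex of male mice aged 8 to 12 weeks, with 3 mice of each inbred strain and no treatment named in the labels. B6 (C57BL6/J) is the strain from which the mouse reference genome was made, C3H is C3H/HeJ and WSB is WSB/EiJ, a strain derived from wild mice. No transgene or engineered allele was named in any group. Each library held 1 mouse. Reads on genes ranged between 17651630 and 21562429 for B6, between 19042306 and 19433751 for C3H and from 16317439 to 17784118 in WSB. The 10 markers of cortical neurons and glia were all present in every library, and their sum was lower in WSB, at 903 to 976 FPKM against 1098 to 1245 in the other strains. Summed hippocampal markers were higher in WSB, at 57.9 to 62.5 FPKM against 33.9 to 41.0, and summed microglial markers lower, at 43.9 to 48.3 against 50.3 to 61.3. Summed blood markers ranged from 632 to 1010 FPKM in C3H against 217 to 254 in B6 and 249 to 329 in WSB, and summed striatal markers from 49.5 to 221 in B6 against 38.5 to 113 in the other strains. C3H replicate 2 differed most from the mice of its own strain. The part of these differences in the pseudogene levels was not tested. The labels do not say whether the mice of a strain came from separate litters. The p-values set a strain difference against the spread between these mice, and may not hold for mice of other litters.

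Because a processed pseudogene can differ from its parent by a few bases, a read from one copy can be placed on the other. Ribosomal protein genes, glycolytic enzymes and cytoskeletal genes are well known for such copies, since their messenger RNAs are abundant. All 73 pseudogenes had a single exon, and their lengths ranged from 69 to 2347 bases with a median of 438. For each, the parent was taken as the protein-coding transcript most like it on the sense strand. A close parent, at least 90% identical over at least 80% of the length, was found for 68 pseudogenes, and these had 59 different parents. Of the 68, 12 were identical to a parent transcript over their whole length. Only reads that cross a differing base, or the ends of the copy, can tell such a pair apart, so every level given here is a level of assigned reads. In bulk tissue, fewer cells of a type and less RNA per cell cannot be told apart either. The pseudogenes lay on 20 chromosomes, 51 of them in no other annotated gene, 19 within introns of another gene and 3 over an exon of another gene.

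The windows of 60 bases show how little separates the copies: each pair gives the pseudogene and then its parent, 5′ to 3′ on the coding strand, from the GENCODE M21 transcripts on GRCm38. Capitals mark the bases that differ. All windows lie in the coding part of the parent. The first 2 pairs belong to pseudogenes that were higher in C3H and in WSB than in B6, the next 2 to pseudogenes higher in C3H, the next 2 to pseudogenes higher in WSB, and the last to one whose level passed the test against B6 in neither strain.
Gm15920: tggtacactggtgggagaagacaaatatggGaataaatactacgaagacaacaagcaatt
Ndufa12: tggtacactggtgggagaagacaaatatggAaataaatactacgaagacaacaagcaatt
Gm4366: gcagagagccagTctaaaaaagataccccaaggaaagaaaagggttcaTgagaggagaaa
Eef1g: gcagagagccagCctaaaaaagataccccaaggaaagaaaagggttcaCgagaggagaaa
Gm15772: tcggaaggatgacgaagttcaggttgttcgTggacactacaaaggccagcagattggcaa
Rpl26: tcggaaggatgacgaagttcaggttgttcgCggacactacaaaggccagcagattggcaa
Gm13394: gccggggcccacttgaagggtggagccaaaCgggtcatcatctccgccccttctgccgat
Gapdh: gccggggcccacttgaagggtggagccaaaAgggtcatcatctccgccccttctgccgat
Gm11425: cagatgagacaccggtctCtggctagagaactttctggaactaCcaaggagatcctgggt
Rpl12: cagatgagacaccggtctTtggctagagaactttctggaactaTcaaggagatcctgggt
Gm11223: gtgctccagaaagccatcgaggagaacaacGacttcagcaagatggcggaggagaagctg
Stmn1: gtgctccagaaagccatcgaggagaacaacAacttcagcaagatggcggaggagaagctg
Gm37116: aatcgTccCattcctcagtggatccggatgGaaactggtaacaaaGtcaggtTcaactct
Rpl39: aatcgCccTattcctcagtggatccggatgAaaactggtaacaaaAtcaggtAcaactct
In tokens such as C177T the parent's base stands first, then the position counted from 1 at the 5′ end of the pseudogene, then the base of the pseudogene. The Gm15772 window (chr5:3236577-3236636, plus strand) holds C177T, 1 of 2 mismatches with Rpl26. The Gm13394 window (chr2:28934235-28934294, minus strand) holds A346C, the only mismatch with Gapdh over 1000 bases. In Gm11425 (chr11:83027596-83027655, minus strand) the window holds T361C and T386C of 4 mismatches with Rpl12. The Gm15920 window (chr5:130188463-130188522, plus strand) holds A99G, the Gm4366 window (chr7:116825101-116825160, minus strand) holds C704T and C740T, and the Gm11223 window (chr4:69925777-69925836, minus strand) holds A274G. Gm37116 (chr3:88284643-88284702, minus strand) carries C57T, T60C, A82G, A97G and A104T against Rpl39 in its window.

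Summed over the 73 pseudogenes, B6 mice had 396, 408 and 445 FPKM, C3H mice 1930, 1775 and 2022, and WSB mice 1918, 2008 and 1844. The B6 sums lay below all others, and those of C3H and WSB overlapped. As a share of reads on genes this was between 0.0136% and 0.0140% for B6, between 0.103% and 0.118% for C3H and between 0.0967% and 0.101% for WSB. A B6 mouse had 28 to 32 of the 73 at 3 FPKM or more, a C3H mouse 58 to 62 and a WSB mouse 59 to 62.

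Each strain pair was compared with limma on log2(FPKM + 0.1) over all genes tested, and a pseudogene was called at an adjusted p (Benjamini-Hochberg) under 0.05. Against B6, 35 of the 73 were called higher and 2 lower in C3H, where 4.64% of 20602 genes were called, 2.38% higher and 2.26% lower. In WSB, 39 were called higher and 1 lower than in B6, where 5.9% of 20746 genes were called, 2.81% higher and 3.09% lower. Between the other two strains the calls were balanced, with 16 pseudogenes higher and 14 lower in WSB than in C3H, where 5.74% of 20607 genes were called, 2.61% higher and 3.13% lower. When background was limited to genes averaging 3 FPKM or more, the shares called were 5.29% for C3H against B6, 6.45% for WSB against B6 and 6.2% for WSB against C3H. The median log2 difference over the 73 was 0.73 for C3H against B6, 1.41 for WSB against B6 and -0.03 for WSB against C3H, and over all genes tested it was 0.00, 0.00 and 0.01. Values of the groups did not overlap for 45, 47 and 40 of the 73 in these comparisons, against 28.9%, 26% and 28.6% of all genes. Where a group had 1 to 3 reads in all, the fitted log2 difference depends on the pseudocount of 0.1, and the ratio of reads is given with its exact 95% interval, which covers counting error only. Both comparisons with B6 share the same 3 B6 mice.

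These counts describe the list and are no test of it, because the level that chose a pseudogene is part of what was compared. Of the 73, 27 had a mean of at least 3 FPKM in every strain, 24 in C3H and WSB alone, 10 in WSB alone, 9 in C3H alone, 1 in B6 alone, 1 in B6 and C3H and 1 in B6 and WSB. By this sorting, a pseudogene that passed through 1 or 2 strains alone had a lower mean in the rest. The gap could be small, as for Gm12715, whose means lay near 3 FPKM in every strain. Among the 27 that passed in every strain, 3 were called higher and 2 lower in C3H than in B6, 5 higher and 1 lower in WSB than in B6, and 3 higher and 1 lower in WSB than in C3H. In that order, 18.5%, 22.2% and 14.8% of the 27 were called, against 4.64%, 5.9% and 5.74% of all genes. The Gm-named processed pseudogenes below 3 FPKM, of which 838 to 862 could be tested, were called higher than B6 in 5.49% of cases in C3H and 7.77% in WSB, and lower in 1.43% and 1.51%. For WSB against C3H those shares were 5.52% higher and 4.7% lower.

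By their calls against B6 the 73 fell into 5 blocks: 23 higher in C3H and WSB, 12 higher in C3H, 16 higher in WSB, 3 lower in 1 strain and 19 called in neither. The 23 had B6 means from 0.0212 to 2.54 FPKM, with 18 of them under 1 FPKM, and medians of 0.313 in B6, 17.9 in C3H and 15.7 in WSB. Between WSB and C3H directly, 17 of these 23 were not called, 4 were lower and 2 higher in WSB. Of the 12 higher in C3H, 10 were lower in WSB than in C3H, and of the 16 higher in WSB, 13 were higher in WSB than in C3H. Median identity to the parent was 99.2% for the 23, 99.7% for the 12, 99.2% for the 16 and 99.6% for the 15 of the 19 that had a close parent.

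**Figure D1:**
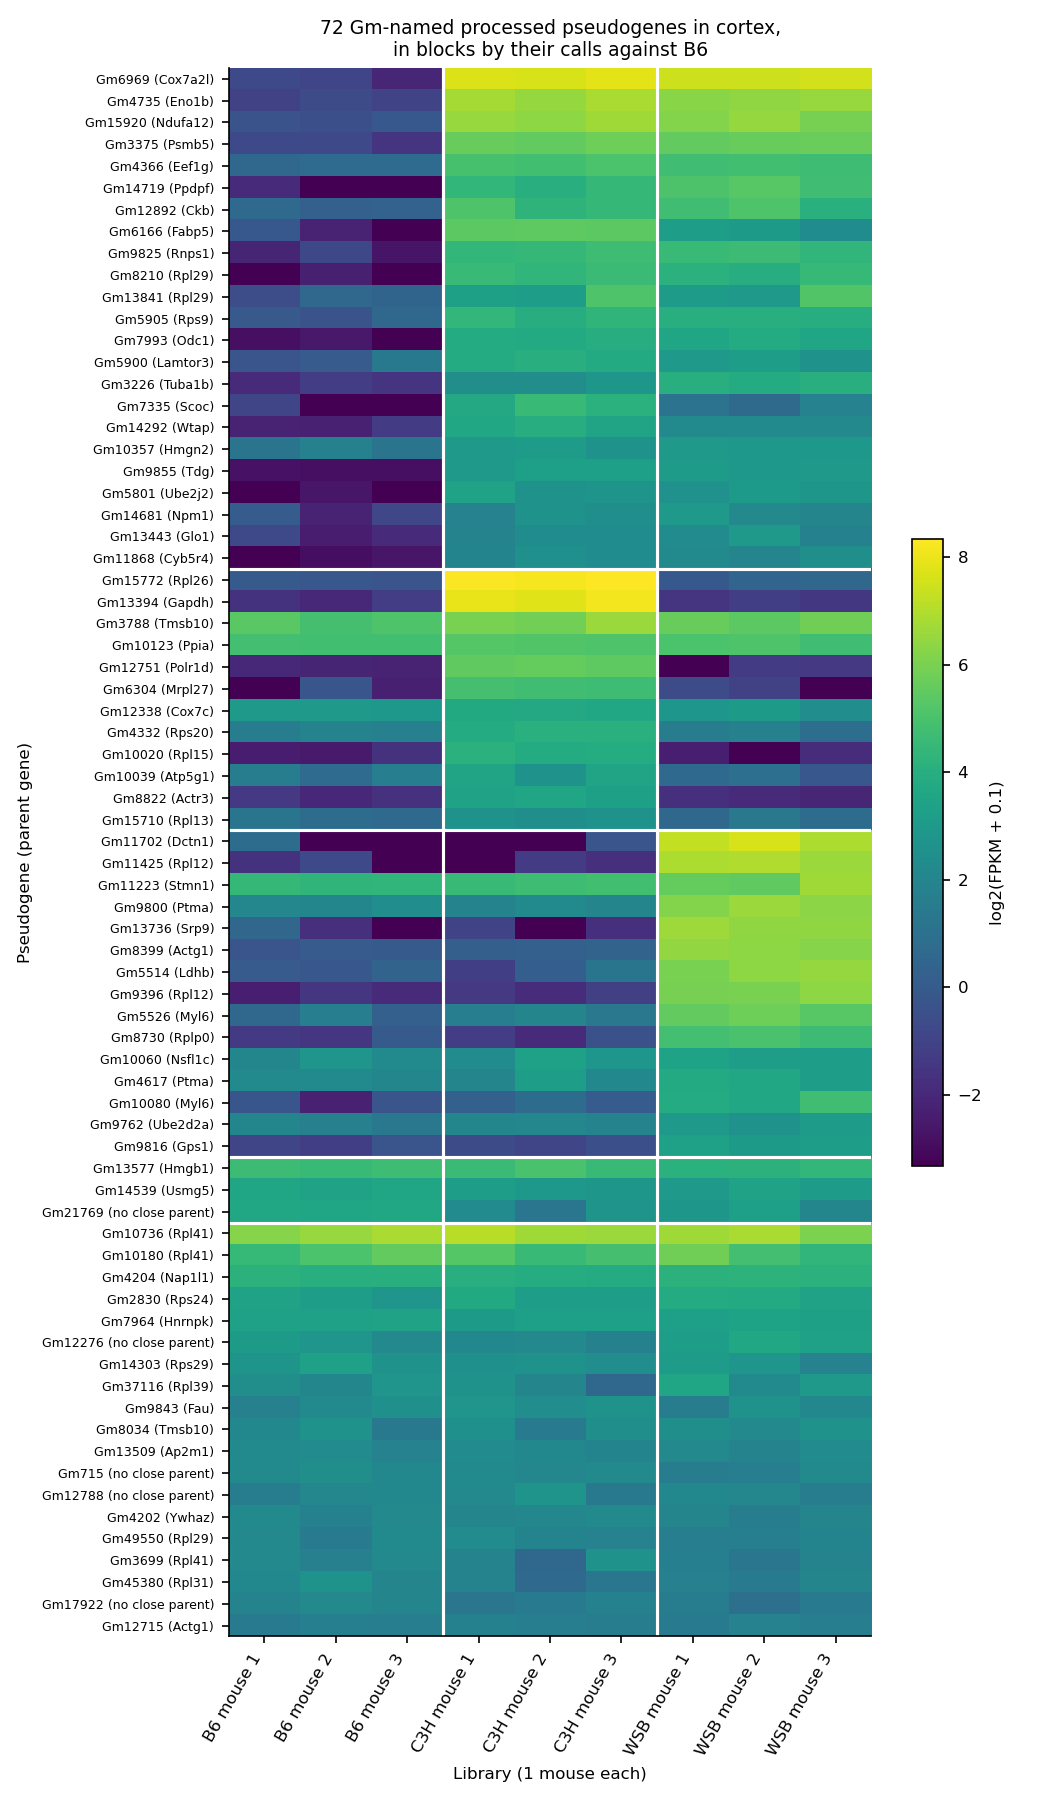
Level of 72 of the 73 pseudogenes (rows, parent gene in parentheses) in each of the 9 libraries (columns, 1 mouse each) as log2(FPKM + 0.1), in blocks by the calls against B6. The top block of 23 is dark in the 3 B6 columns and bright in C3H and WSB, the next 12 are brightest in C3H, the next 15 in WSB, and the last 19 keep a similar shade in all columns.

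**Figure D2:**
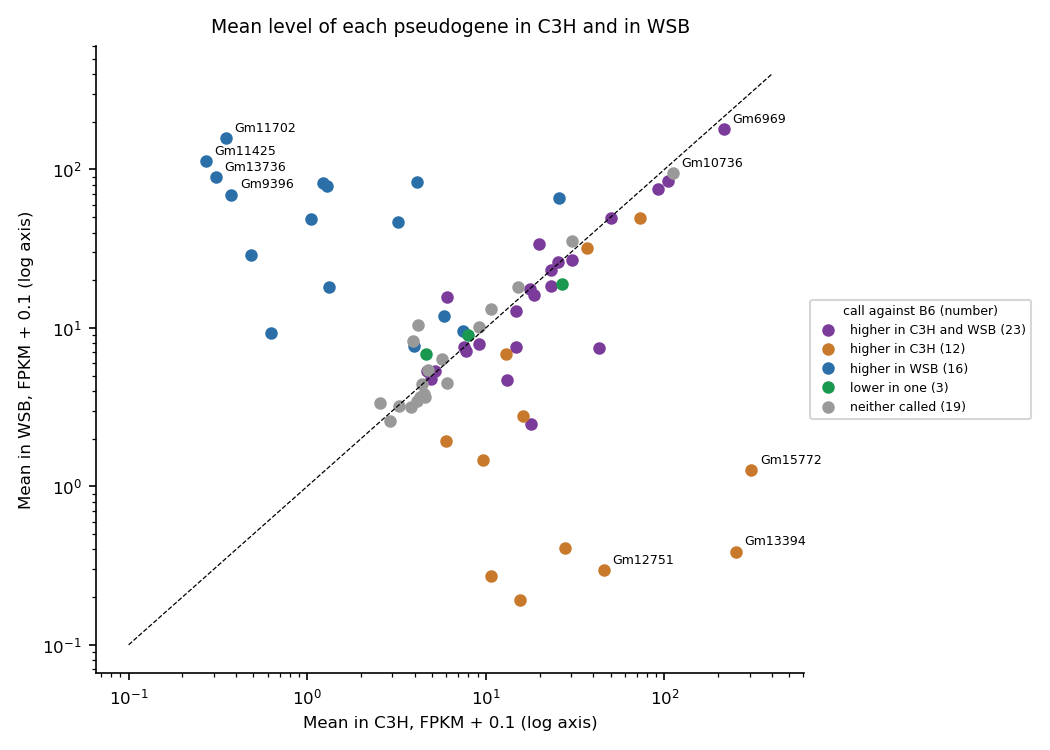
Mean FPKM + 0.1 of each pseudogene over 3 C3H mice (x axis, log) and over 3 WSB mice (y axis, log), coloured by its call against B6, with a dashed line of equal levels. Of the 23 pseudogenes higher than B6 in both strains, the 17 not called between WSB and C3H lie near the line, while Gm15772 and Gm13394 lie far to the right and Gm11702 and Gm11425 far to the left.

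Pseudogenes were grouped by a list of parent gene symbols, which did not hold every gene of a process. Beside the counts of each group in this list stand 2.38% of all genes called higher than B6 in C3H and 2.81% in WSB. By this list those of mitochondrial respiration and ATP synthesis numbered 4, with 4 called higher in C3H than in B6 and 2 called higher in WSB. Gm14539, a copy of the ATP synthase subunit gene Usmg5 that the list did not hold, went the other way and was called lower in C3H. Gm6969 (chr12:24638669-24639010) copies Cox7a2l, which encodes a factor of respiratory supercomplex assembly, and had the highest mean of the whole list. For Gm6969 the B6 mice had 0.490, 0.434 and 0.137 FPKM, the C3H mice 210.2, 201 and 234 and the WSB mice 177, 177 and 186. Its 3 B6 libraries held 3, 3 and 1 reads, so all 6 other mice lay far above B6. On the log2 scale Gm6969 differed by 8.99 for C3H against B6 (SE 0.32, limma adjusted p = 6.4e-06) and 8.74 for WSB against B6 (SE 0.32, limma adjusted p = 7.4e-06). Gm15920, within an intron of Rabgef1 on the same strand, copies Ndufa12, an accessory subunit of complex I. In FPKM, Gm15920 was at 0.695, 0.616 and 0.817 in B6, at 91.8, 82.4 and 103 in C3H and at 73.1, 89.4 and 62.5 in WSB. Again every C3H and WSB mouse lay above every B6 mouse. For Gm15920 the fitted log2 difference was 6.84 for C3H against B6 (SE 0.13, limma adjusted p = 2.7e-07) and 6.53 for WSB against B6 (SE 0.15, limma adjusted p = 9.7e-07). Gm10039, a copy of Atp5g1 (subunit c of ATP synthase), was different, with C3H above both other strains. Levels of Gm10039 were 2.85, 1.57 and 3.08 FPKM in B6, 11.1, 6.15 and 11.3 in C3H and 1.46, 1.83 and 0.799 in WSB. Gm10039 had a log2 difference of 1.89 for C3H against B6 (SE 0.31, limma adjusted p = 0.016) and -2.73 for WSB against C3H (SE 0.33, limma adjusted p = 0.0046). The C3H call was lost under 5 of 16 alternatives. Gm12338, identical to Cox7c over 192 bases, had means of 7.54 FPKM in B6, 12.9 in C3H and 6.71 in WSB.

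The 2 pseudogenes of glycolytic enzymes were each high in 1 strain. Gm13394 lies in an intron of Cfap77 on the same strand and copies Gapdh, the glyceraldehyde-3-phosphate dehydrogenase. Gm13394 had 0.223, 0.149 and 0.328 FPKM in the B6 mice, 251, 221 and 282 in the C3H mice and 0.241, 0.347 and 0.274 in the WSB mice. In reads this was 3 to 7 per B6 mouse, 4282 to 5468 per C3H mouse and 4 to 6 per WSB mouse. In the fit, Gm13394 differed by 9.59 for C3H against B6 (SE 0.20, limma adjusted p = 4.0e-07) and -9.35 for WSB against C3H (SE 0.13, limma adjusted p = 1.0e-07), in log2 units. Gm5514 copies Ldhb, the heart-type subunit of lactate dehydrogenase. For Gm5514 the B6 mice had 0.913, 0.809 and 1.23 FPKM, the C3H mice 0.351, 1.01 and 2.19 and the WSB mice 63.1, 81.7 and 91.1. Here the WSB mice stood above the 6 others, whose ranges overlapped. Fitted in log2 units, Gm5514 differed by 6.19 for WSB against B6 (SE 0.18, limma adjusted p = 2.4e-06) and 6.22 for WSB against C3H (SE 0.52, limma adjusted p = 0.00074). Its deposited length is 306 bases, and the transcript matched here has 1002 bases. Gm4735, counted outside this pair because its best match is Eno1b, copies the enolase gene Eno1b, itself an intronless copy, and is 99.6% identical to Eno1, the main enolase of most tissues. In FPKM, Gm4735 was at 0.386, 0.532 and 0.432 in B6, at 108, 91.4 and 115 in C3H and at 77.6, 83.5 and 92.8 in WSB. Every C3H and WSB mouse lay above every B6 mouse. The log2 difference of Gm4735 was 7.58 for C3H against B6 (SE 0.13, limma adjusted p = 2.5e-07) and 7.27 for WSB against B6 (SE 0.12, limma adjusted p = 2.8e-07). Eno1b moved alongside, from 0.316 ± 0.24 FPKM (SD, n = 3) in B6 to levels of 83.9 ± 11 for C3H and 73.8 ± 9.6 for WSB. Eno1 had 188 ± 11 FPKM in B6, 126 ± 15 in C3H and 107 ± 4.2 in WSB and was called lower in both strains (limma adjusted p = 0.023 and 0.00083).

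Ribosomal protein copies formed the largest group, with 20 pseudogenes of 15 parents. In C3H 7 and in WSB 7 were called higher than in B6. Gm15772 (chr5:3236431-3236868) copies Rpl26 of the large subunit and led the group. Levels of Gm15772 were 0.893, 0.791 and 0.750 FPKM in B6, 307, 290.0 and 325 in C3H and 0.824, 1.32 and 1.37 in WSB. The 3 C3H mice had 2461 to 2760 reads and the 6 others 6 to 11. On the log2 scale Gm15772 differed by 8.40 for C3H against B6 (SE 0.09, limma adjusted p = 1.6e-08) and -7.94 for WSB against C3H (SE 0.17, limma adjusted p = 1.1e-06). Gm10020, a copy of Rpl15, had the same order. Gm10020 had 0.0913, 0.0809 and 0.230 FPKM in the B6 mice, 17.1, 14.4 and 14.8 in the C3H mice and 0.0983, 0 and 0.179 in the WSB mice. For Gm10020 the fitted log2 difference was 6.11 for C3H against B6 (SE 0.24, limma adjusted p = 1.1e-05) and -6.45 for WSB against C3H (SE 0.35, limma adjusted p = 0.00011). Its 3 WSB libraries held 3 reads in all against 542 in C3H, a ratio of 164 with an exact 95% counting interval of 55.9 to 799.

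Rpl12, a component of the ribosomal stalk base, has 2 copies in the list, Gm11425 and Gm9396, on chromosomes 11 and 3. For Gm11425 the B6 mice had 0.224, 0.497 and 0 FPKM, the C3H mice 0, 0.311 and 0.207 and the WSB mice 121, 122 and 94.8. In FPKM, Gm9396 was at 0.0985, 0.262 and 0.166 in B6, at 0.284, 0.182 and 0.364 in C3H and at 62.0, 63.3 and 82.2 in WSB. Both were high in WSB alone, with no overlap with the other strains. Gm11425 had a log2 difference of 8.70 for WSB against B6 (SE 0.57, limma adjusted p = 0.00018) and 8.91 for WSB against C3H (SE 0.47, limma adjusted p = 0.0001). In the fit, Gm9396 differed by 8.01 for WSB against B6 (SE 0.22, limma adjusted p = 2.2e-06) and 7.54 for WSB against C3H (SE 0.20, limma adjusted p = 2.2e-06), in log2 units. Gm8730 copies Rplp0, a stalk protein. Levels of Gm8730 were 0.293, 0.260 and 0.885 FPKM in B6, 0.338, 0.162 and 0.648 in C3H and 28.7, 31.5 and 25.8 in WSB. Fitted in log2 units, Gm8730 differed by 5.79 for WSB against B6 (SE 0.36, limma adjusted p = 0.00014) and 6.02 for WSB against C3H (SE 0.34, limma adjusted p = 0.00013). Every WSB mouse was above every B6 and C3H mouse.

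Rpl29, another protein of the large subunit, has 3 copies in the list. Gm8210, in an intron of Fhl2 on the opposite strand, had 1 read over the 3 B6 mice. Gm8210 had 0, 0.103 and 0 FPKM in the B6 mice, 24.1, 20.5 and 24.3 in the C3H mice and 17.6, 15.2 and 22.1 in the WSB mice. The log2 difference of Gm8210 was 7.51 for C3H against B6 (SE 0.28, limma adjusted p = 8.6e-06) and 7.17 for WSB against B6 (SE 0.30, limma adjusted p = 1.8e-05). The ratio to B6 was 659 in C3H, with a counting interval of 118 to 26084, and 527 in WSB, with an interval of 94.1 to 20853. Gm13841, singled out after its values were seen, had 87, 83 and 323 reads in C3H and 67, 65 and 321 in WSB, so replicate 3 of both strains stood far above the rest. Gm8210 and Gm13841 carry the same 3 mismatches with Rpl29 (C72A, C300T and T423C) over 483 bases without gaps. Their annotated sequences are therefore identical, and reads inside them cannot tell these copies apart. Gm49550, the shortest of the 3 copies, had means of 3.88 FPKM in B6, 4.02 in C3H and 3.33 in WSB. Copies of Rpl41, the smallest ribosomal protein, were called in neither comparison with B6. For Gm10736 the B6 mice had 75.2, 92.7 and 117 FPKM, the C3H mice 136, 103 and 96.5 and the WSB mice 102, 118 and 66.0. On the log2 scale Gm10736 differed by 0.24 for C3H against B6 (SE 0.19, limma adjusted p = 0.46) and -0.02 for WSB against B6 (SE 0.24, limma adjusted p = 0.98). All 3 groups overlapped. Means of Gm10180 were 33.8 ± 12 FPKM in B6, 30.3 ± 7.4 in C3H and 35.4 ± 19 in WSB (SD, n = 3). Gm3699 had a mean of 4.05 ± 0.65 FPKM in B6, 3.71 ± 2.4 in C3H and 3.06 ± 0.68 in WSB (SD, n = 3). At 78 bases, Gm10736 and Gm10180 are each identical to Rpl41 and shorter than a read of 150 bp.

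The other ribosomal copies were described by their means. Gm5905 copies Rps9 and was called higher in both strains. Means of Gm5905 were 0.975 ± 0.36 FPKM in B6, 18.6 ± 2.9 in C3H and 16.03 ± 0.56 in WSB (SD, n = 3). Gm4332 (Rps20) and Gm15710 (Rpl13) were called higher in C3H. Gm4332 had a mean of 3.25 ± 0.34 FPKM in B6, 15.99 ± 1.3 in C3H and 2.68 ± 0.83 in WSB (SD, n = 3). Means of Gm15710 were 1.77 ± 0.38 FPKM in B6, 5.92 ± 0.28 in C3H and 1.84 ± 0.54 in WSB (SD, n = 3). Both lay near the B6 level in WSB. The remaining 5 were called against B6 in neither strain, and 4 of them had means from 3.83 to 13.0 FPKM in every strain: Gm2830 (Rps24), Gm14303 (Rps29), Gm37116 (Rpl39) and Gm9843 (Fau). The fifth, Gm45380 (Rpl31), was below 3 FPKM in C3H. Gm45380 had a mean of 4.70 ± 1.1 FPKM in B6, 2.45 ± 1.1 in C3H and 3.27 ± 0.54 in WSB (SD, n = 3).

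**Figure D3:**
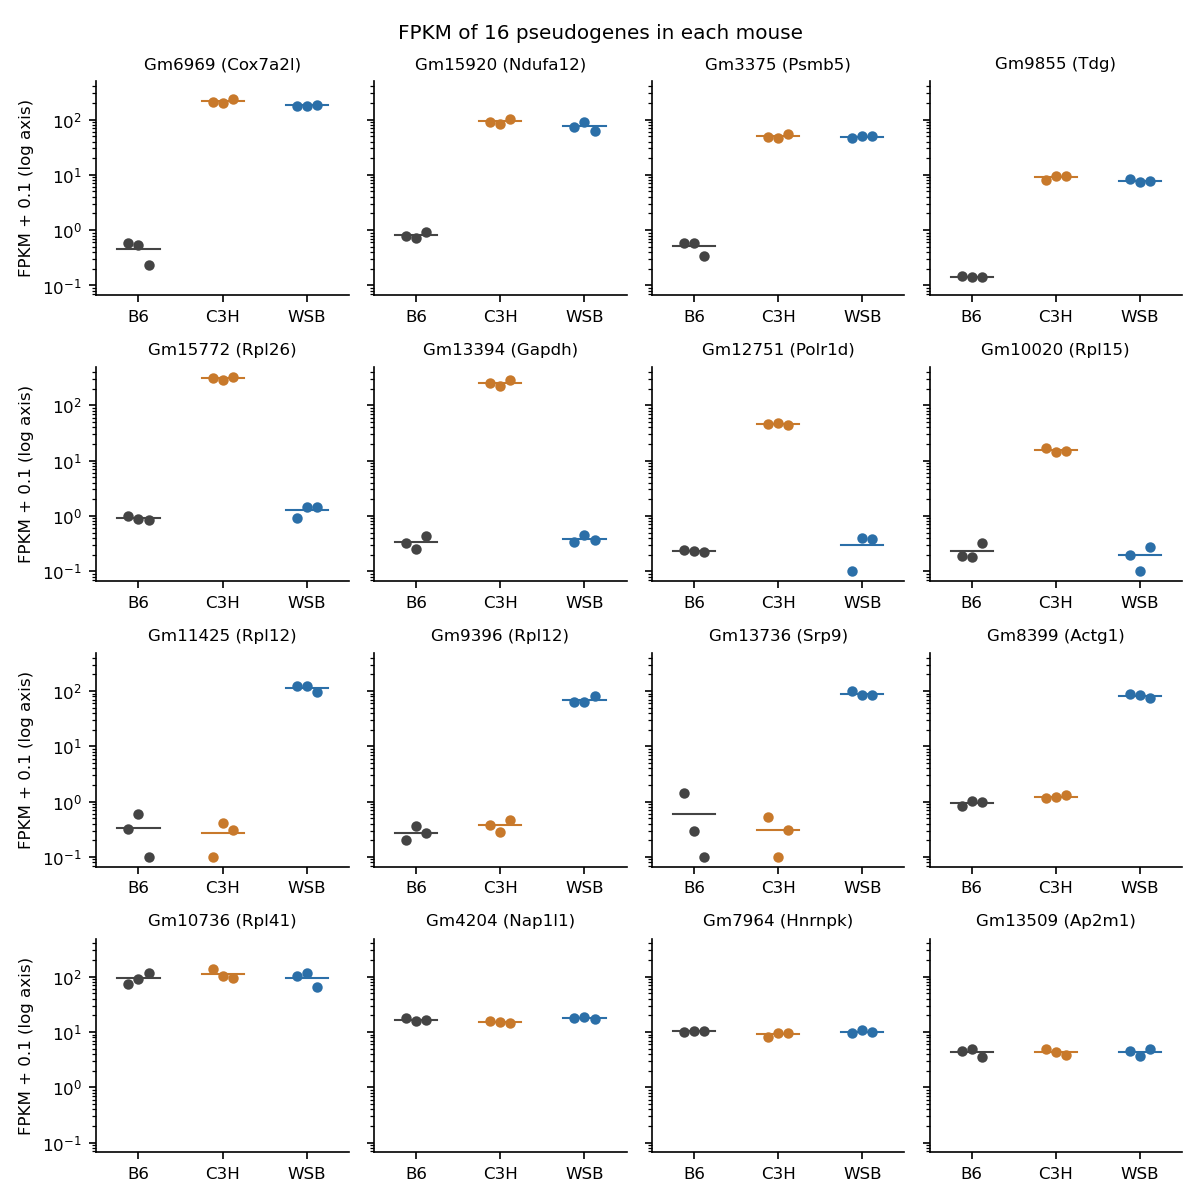
FPKM + 0.1 on a log axis in each mouse for 16 pseudogenes, with the parent gene in parentheses, points for mice and a line for the mean of 3. The first row is high in C3H and WSB, the second in C3H, the third in WSB, and the fourth is level across strains (Gm10736, Gm4204, Gm7964 and Gm13509).

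Copies of ubiquitin and proteasome genes numbered 3, with 2 called higher in C3H and 3 in WSB than in B6. Gm3375 copies Psmb5, the proteasome subunit with chymotrypsin-like activity. In FPKM, Gm3375 was at 0.491, 0.498 and 0.236 in B6, at 48.9, 46.2 and 55.2 in C3H and at 46.4, 49.7 and 50.8 in WSB. For Gm3375 the fitted log2 difference was 6.67 for C3H against B6 (SE 0.22, limma adjusted p = 5.2e-06) and 6.64 for WSB against B6 (SE 0.22, limma adjusted p = 4.7e-06). Its C3H and WSB values overlapped, and both lay above B6. Gm5801 copies Ube2j2, a ubiquitin-conjugating enzyme of the endoplasmic reticulum, and had 1 read in the 3 B6 libraries together. Levels of Gm5801 were 0, 0.0635 and 0 FPKM in B6, 10.4, 6.02 and 6.54 in C3H and 5.94, 8.00 and 7.09 in WSB. Gm5801 had a log2 difference of 5.998 for C3H against B6 (SE 0.30, limma adjusted p = 3.6e-05) and 5.90 for WSB against B6 (SE 0.26, limma adjusted p = 2.2e-05). Counted in reads, C3H and WSB exceeded B6 by ratios of 353 (interval 62.9 to 13982) and 325 (interval 57.9 to 12898). Gm9762, identical to Ube2d2a over 444 bases, had means of 3.23 FPKM in B6, 3.89 in C3H and 7.57 in WSB.

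Of 8 copies of cytoskeletal genes in the list of symbols, 2 were called higher in C3H and 5 in WSB than in B6. The list did not hold Actr3 and Dctn1, whose copies Gm8822 and Gm11702 were called higher in C3H and in WSB, respectively. Gm3788, in an intron of Lrba on the opposite strand, copies Tmsb10, an actin-sequestering thymosin, and had the highest mean of the group. Gm3788 had 40.7, 30.2 and 34.8 FPKM in the B6 mice, 62.8, 57.7 and 97.4 in the C3H mice and 49.1, 42.9 and 56.4 in the WSB mice. In the fit, Gm3788 differed by 1.01 for C3H against B6 (SE 0.20, limma adjusted p = 0.036) and 0.49 for WSB against B6 (SE 0.14, limma adjusted p = 0.091), in log2 units. The C3H values lay above those of B6, but this call was lost under 6 of 16 alternatives. Tmsb10 itself had 173 ± 8.6 FPKM in B6, 253 ± 27 in C3H and 229 ± 25 in WSB. Gm8399 copies the cytoplasmic actin Actg1. For Gm8399 the B6 mice had 0.750, 0.931 and 0.882 FPKM, the C3H mice 1.06, 1.11 and 1.20 and the WSB mice 87.5, 83.3 and 75.6. Fitted in log2 units, Gm8399 differed by 6.43 for WSB against B6 (SE 0.10, limma adjusted p = 2.8e-07) and 6.07 for WSB against C3H (SE 0.09, limma adjusted p = 1.0e-07). WSB stood apart, and Gm8399 overlaps an exon of the small gene Gm25241 on the same strand. A second copy of Actg1, Gm12715, was level, with means of 2.96 FPKM in B6, 3.15 in C3H and 3.14 in WSB. Gm5526 and Gm10080 both copy Myl6, a myosin light chain, and both were high in WSB. Means of Gm5526 were 1.87 ± 1.0 FPKM in B6, 3.13 ± 0.74 in C3H and 46.8 ± 7.5 in WSB (SD, n = 3). Gm10080 had a mean of 0.543 ± 0.37 FPKM in B6, 1.23 ± 0.37 in C3H and 17.9 ± 8.1 in WSB (SD, n = 3). Gm11223 copies Stmn1, which destabilises microtubules, and was called higher in WSB. Means of Gm11223 were 20.6 ± 0.78 FPKM in B6, 25.7 ± 2.1 in C3H and 65.7 ± 32 in WSB (SD, n = 3). The wide WSB error came from replicate 3, with 847 reads against 364 and 354. Gm3226, over an exon of Il31ra on the same strand, copies the tubulin gene Tuba1b and was called higher in both strains. Gm3226 had a mean of 0.248 ± 0.083 FPKM in B6, 5.98 ± 1.1 in C3H and 15.7 ± 1.0 in WSB (SD, n = 3). Gm8034, the second copy of Tmsb10, was not called. Means of Gm8034 were 4.24 ± 1.8 FPKM in B6, 4.63 ± 1.6 in C3H and 5.35 ± 0.93 in WSB (SD, n = 3).

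Copies of chromatin and nucleolar genes numbered 6, with 2 called higher in C3H, and 4 called higher and 1 lower in WSB than in B6. Gm9800 copies Ptma, an acidic nuclear protein. In FPKM, Gm9800 was at 4.16, 3.98 and 5.17 in B6, at 3.68, 4.61 and 3.83 in C3H and at 71.9, 95.7 and 80.5 in WSB. The log2 difference of Gm9800 was 4.19 for WSB against B6 (SE 0.14, limma adjusted p = 4.1e-06) and 4.32 for WSB against C3H (SE 0.13, limma adjusted p = 3.9e-06). Each B6 mouse had 25 to 37 reads of it, so it was measured in every strain. Gm13577 copies Hmgb1, a DNA-bending protein, and was the pseudogene called lower in WSB. Levels of Gm13577 were 25.6, 23.7 and 26.1 FPKM in B6, 24.4, 32.0 and 23.6 in C3H and 17.3, 17.7 and 21.4 in WSB. On the log2 scale Gm13577 differed by -0.42 for WSB against B6 (SE 0.10, limma adjusted p = 0.049). The groups did not overlap, yet the call was lost under 13 of 16 alternatives. Gm4204, a copy of the histone chaperone gene Nap1l1, had means of 16.7 FPKM in B6, 15.0 in C3H and 18.02 in WSB and was not called. Gm4617, a second copy of Ptma, and Gm14681, a copy of the nucleolar gene Npm1, were lower in level. Gm4617 had a mean of 4.34 ± 0.32 FPKM in B6, 5.71 ± 2.9 in C3H and 11.8 ± 2.4 in WSB (SD, n = 3). Means of Gm14681 were 0.509 ± 0.42 FPKM in B6, 5.11 ± 1.4 in C3H and 5.28 ± 2.0 in WSB (SD, n = 3). Gm10357 copies Hmgn2, a nucleosome-binding protein. Gm10357 had a mean of 2.54 ± 0.72 FPKM in B6, 7.46 ± 1.2 in C3H and 7.47 ± 0.040 in WSB (SD, n = 3).

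The 22 parents whose symbols were in no group of the list had 1 copy each in the list, with 15 called higher and 1 lower in C3H and 16 called higher in WSB. Gm13736 is identical over 253 bases to Srp9, a protein of the signal recognition particle. Gm13736 had 1.32, 0.196 and 0 FPKM in the B6 mice, 0.425, 0 and 0.204 in the C3H mice and 100.5, 83.8 and 84.2 in the WSB mice. For Gm13736 the fitted log2 difference was 8.003 for WSB against B6 (SE 0.83, limma adjusted p = 0.0018) and 8.47 for WSB against C3H (SE 0.53, limma adjusted p = 0.00022). C3H had 3 reads of it in all and WSB 1179, a ratio of 432 with an interval of 147 to 2098. Gm12751 is identical over 381 bases to Polr1d, a subunit shared by RNA polymerases I and III. For Gm12751 the B6 mice had 0.147, 0.130 and 0.123 FPKM, the C3H mice 45.1, 47.9 and 44.2 and the WSB mice 0, 0.303 and 0.287. Gm12751 had a log2 difference of 7.62 for C3H against B6 (SE 0.10, limma adjusted p = 6.1e-08) and -7.52 for WSB against C3H (SE 0.50, limma adjusted p = 0.00026). B6 had 3 reads of it in all and C3H 1001, a ratio of 345 with an interval of 118 to 1678. Gm13736 and Gm12751, without any base differing from their parents in the reference, were thus each high in 1 strain. The other 6 mice had at most 6 reads of each, and Gm11702, described below, was another such copy. Gm6304 copies Mrpl27 of the mitochondrial ribosome. In FPKM, Gm6304 was at 0, 0.775 and 0.105 in B6, at 29.9, 27.2 and 25.9 in C3H and at 0.538, 0.388 and 0 in WSB. In the fit, Gm6304 differed by 6.73 for C3H against B6 (SE 0.68, limma adjusted p = 0.0017) and -6.46 for WSB against C3H (SE 0.62, limma adjusted p = 0.0015), in log2 units. Gm8822 copies Actr3, a subunit of the actin-branching Arp2/3 complex, and was high in C3H alone. Levels of Gm8822 were 0.286, 0.148 and 0.220 FPKM in B6, 10.5, 11.52 and 9.90 in C3H and 0.205, 0.172 and 0.140 in WSB. Fitted in log2 units, Gm8822 differed by 5.10 for C3H against B6 (SE 0.19, limma adjusted p = 8.0e-06) and -5.31 for WSB against C3H (SE 0.15, limma adjusted p = 3.2e-06). Gm11702, in an intron of Grb2 on the same strand, is a stretch of 69 bases identical to Dctn1, a subunit of the dynein adaptor dynactin. Gm11702 had 1.62, 0 and 0 FPKM in the B6 mice, 0, 0 and 0.747 in the C3H mice and 155, 200.03 and 119 in the WSB mice. The log2 difference of Gm11702 was 9.23 for WSB against B6 (SE 1.03, limma adjusted p = 0.0026) and 9.57 for WSB against C3H (SE 0.78, limma adjusted p = 0.00066). B6 had 2 reads in 3 libraries, which gave WSB a ratio of 323 with an interval of 88.9 to 2670.1. C3H had 1 read and WSB 567, a ratio of 623 with a counting interval of 111 to 24661.

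Several of these 22 had nearly no reads in B6 and were high in both other strains. Gm9825 copies Rnps1, which acts in splicing and the exon junction complex. For Gm9825 the B6 mice had 0.133, 0.470 and 0.0557 FPKM, the C3H mice 20.9, 21.5 and 26.5 and the WSB mice 24.0, 25.3 and 20.3. On the log2 scale Gm9825 differed by 6.39 for C3H against B6 (SE 0.43, limma adjusted p = 0.00019) and 6.40 for WSB against B6 (SE 0.43, limma adjusted p = 0.0002). Gm9855 copies Tdg, a DNA glycosylase, and had 1 read in each B6 mouse. In FPKM, Gm9855 was at 0.0468, 0.0415 and 0.0393 in B6, at 7.96, 9.55 and 9.58 in C3H and at 8.31, 7.40 and 7.66 in WSB. For Gm9855 the fitted log2 difference was 5.997 for C3H against B6 (SE 0.16, limma adjusted p = 1.5e-06) and 5.79 for WSB against B6 (SE 0.16, limma adjusted p = 2.1e-06). Its reads exceeded those of B6 by ratios of 214 in C3H (interval 72.9 to 1040.2) and 184 in WSB (interval 62.6 to 895). Gm7993 copies Odc1, the rate-limiting enzyme of polyamine synthesis. Levels of Gm7993 were 0.0404, 0.0716 and 0 FPKM in B6, 14.5, 13.9 and 15.5 in C3H and 11.51, 14.4 and 11.9 in WSB. Gm7993 had a log2 difference of 6.78 for C3H against B6 (SE 0.22, limma adjusted p = 4.2e-06) and 6.56 for WSB against B6 (SE 0.23, limma adjusted p = 6.3e-06). Its read ratios to B6 were 401 in C3H (interval 137 to 1947) and 346 in WSB (interval 118 to 1679). In all 3, every C3H and WSB mouse lay above every B6 mouse. Gm14719 copies Ppdpf, and had 1 read over the B6 mice. Gm14719 had 0.164, 0 and 0 FPKM in the B6 mice, 21.2, 16.2 and 21.8 in the C3H mice and 33.4, 40.3 and 27.0 in the WSB mice. In the fit, Gm14719 differed by 7.15 for C3H against B6 (SE 0.38, limma adjusted p = 5.2e-05) and 7.91 for WSB against B6 (SE 0.38, limma adjusted p = 3.6e-05), in log2 units. Its read ratios to B6 were 399 in C3H (interval 71.1 to 15781) and 676 in WSB (interval 121 to 26740.4). WSB was also called higher than C3H for Gm14719, by 0.76 on the log2 scale, which was lost under 10 of 16 alternatives.

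A step between the strains was seen in Gm6166 and Gm7335. Gm6166 copies Fabp5, a fatty acid-binding protein. For Gm6166 the B6 mice had 0.819, 0.121 and 0 FPKM, the C3H mice 42.6, 44.3 and 42.5 and the WSB mice 8.97, 8.05 and 4.95. Fitted in log2 units, Gm6166 differed by 7.31 for C3H against B6 (SE 0.69, limma adjusted p = 0.0012) and -2.58 for WSB against C3H (SE 0.20, limma adjusted p = 0.00057). C3H was above WSB and WSB above B6 with no overlap, and the call of WSB against B6 was lost under 5 of 16 alternatives. Gm7335 copies Scoc, a coiled-coil protein of the Golgi. In FPKM, Gm7335 was at 0.449, 0 and 0 in B6, at 13.3, 23.1 and 17.4 in C3H and at 2.10, 1.55 and 3.52 in WSB. The log2 difference of Gm7335 was 6.64 for C3H against B6 (SE 0.63, limma adjusted p = 0.0013) and -2.90 for WSB against C3H (SE 0.31, limma adjusted p = 0.0023). Its read ratios to B6 were 133 in C3H (interval 45.1 to 647) and 17.8 in WSB (interval 5.74 to 89.5). The order was the same, and the call of WSB against B6 was lost under 7 of 16 alternatives.

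The other members of this set were described by their means. Means of Gm12892 were 1.24 ± 0.20 FPKM in B6, 25.3 ± 8.7 in C3H and 26.1 ± 8.7 in WSB (SD, n = 3). Its parent Ckb is the brain creatine kinase. Gm5900 had a mean of 1.39 ± 0.97 FPKM in B6, 14.7 ± 1.1 in C3H and 7.53 ± 1.3 in WSB (SD, n = 3). Its parent Lamtor3 is a scaffold of the lysosomal mTORC1 pathway. Means of Gm14292 were 0.180 ± 0.11 FPKM in B6, 13.1 ± 2.0 in C3H and 4.58 ± 0.13 in WSB (SD, n = 3). Its parent Wtap belongs to the RNA methyltransferase complex. Gm9816 had a mean of 0.505 ± 0.20 FPKM in B6, 0.530 ± 0.091 in C3H and 9.18 ± 1.1 in WSB (SD, n = 3). Its parent Gps1 is a subunit of the COP9 signalosome. Means of Gm13443 were 0.254 ± 0.22 FPKM in B6, 4.57 ± 0.77 in C3H and 5.24 ± 2.1 in WSB (SD, n = 3). Gm10060 had a mean of 5.12 ± 1.4 FPKM in B6, 7.34 ± 2.7 in C3H and 9.52 ± 1.1 in WSB (SD, n = 3). Gm13509 (Ap2m1) and Gm4202 (Ywhaz) were called in neither strain. Means of Gm13509 were 4.28 ± 0.72 FPKM in B6, 4.28 ± 0.53 in C3H and 4.33 ± 0.65 in WSB (SD, n = 3). Gm4202 had a mean of 4.10 ± 0.64 FPKM in B6, 4.18 ± 0.35 in C3H and 3.55 ± 0.48 in WSB (SD, n = 3).

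Groups of a single copy were Gm4366, Gm10123 and Gm7964. Gm4366 copies Eef1g, a subunit of the elongation factor complex, and was called higher in both strains. Means of Gm4366 were 1.54 ± 0.072 FPKM in B6, 30.2 ± 2.1 in C3H and 26.9 ± 0.85 in WSB (SD, n = 3). Gm10123 is identical over 490 bases to Ppia, a peptidyl-prolyl isomerase, and was called higher in C3H. Gm10123 had a mean of 28.2 ± 0.71 FPKM in B6, 36.6 ± 2.1 in C3H and 31.7 ± 3.7 in WSB (SD, n = 3). Gm7964 copies the RNA-binding protein gene Hnrnpk and was not called. Means of Gm7964 were 10.2 ± 0.15 FPKM in B6, 9.04 ± 0.81 in C3H and 10.1 ± 0.56 in WSB (SD, n = 3).

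Lower levels than in B6 were called for Gm14539 and Gm21769 in C3H. Gm14539 is identical to Usmg5, a small subunit of ATP synthase, over 174 bases. Levels of Gm14539 were 11.9, 10.5 and 11.9 FPKM in B6, 8.95, 7.41 and 7.11 in C3H and 7.95, 10.3 and 8.49 in WSB. On the log2 scale Gm14539 differed by -0.55 for C3H against B6 (SE 0.11, limma adjusted p = 0.037). Gm21769 has no close parent. Gm21769 had 12.6, 12.0 and 12.7 FPKM in the B6 mice, 4.84, 2.32 and 6.50 in the C3H mice and 7.04, 9.36 and 3.95 in the WSB mice. For Gm21769 the fitted log2 difference was -1.55 for C3H against B6 (SE 0.32, limma adjusted p = 0.041). In both the C3H mice lay below the B6 mice, but 9 and 6 of 16 alternatives lost the call. The WSB mice lay below the B6 mice in both as well, but missed the threshold. Neither pseudogene was called between WSB and C3H. The other 4 without a close parent were Gm12276, Gm715, Gm12788 and Gm17922, which missed the threshold against B6 in both strains. Gm12276 had a mean of 6.42 ± 1.9 FPKM in B6, 4.06 ± 0.55 in C3H and 10.4 ± 1.8 in WSB (SD, n = 3). Means of Gm715 were 4.77 ± 0.51 FPKM in B6, 4.47 ± 0.27 in C3H and 3.57 ± 0.91 in WSB (SD, n = 3). Gm12788 had a mean of 3.78 ± 0.76 FPKM in B6, 4.41 ± 1.9 in C3H and 3.75 ± 0.79 in WSB (SD, n = 3).

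Near the limit of 3 FPKM the last pseudogenes inside were Gm11868 at a mean of 3.16, Gm17922 at 3.10 and Gm12715 at 3.08. The first outside were Gm8129 at 2.98, Gm13453 at 2.93 and Gm9794 at 2.91. Gm11868 copies Cyb5r4, a cytochrome b5 reductase, and had 3 reads over the B6 mice and 98 to 163 in each other mouse, with ratios to B6 of 141 in C3H (interval 47.9 to 687) and 136 in WSB (interval 46.2 to 663), while Gm17922 had 26 to 72 reads in every mouse.

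The parents were then examined in the same mice. Of the 34 parents whose pseudogenes were called higher in C3H than in B6, 12 were called lower in C3H and 3 higher. Of the 35 parents whose pseudogenes were called higher in WSB than in B6, 11 were called lower in WSB and 1 higher. These stand beside 2.26% of all genes called lower in C3H and 3.09% in WSB. Among the 26 and 25 parents with a pseudogene that was not called, 2 and 1 were called lower and 1 and 0 higher. A parent whose copies differ in their calls, such as Rpl29, counts in both sets. The sets were sorted by calls in the same mice, and a read of a near-identical pair can be placed on either gene. These parent counts are therefore a description without a test. Among the parents called lower, Rpl26 fell furthest. Rpl26 had 149 ± 3.5 FPKM (SD, n = 3) in B6, 5.27 ± 0.59 in C3H and 159 ± 19 in WSB, and fell by 4.81 on the log2 scale in C3H against B6 (SE 0.09, limma adjusted p = 2.9e-07). Rpl12 had 55.5 ± 4.7 FPKM in B6, 66.4 ± 4.9 in C3H and 12.2 ± 2.4 in WSB, and fell by 2.20 in WSB against B6 (SE 0.15, limma adjusted p = 0.00023). For Rpl26 and Rpl12 the strain with the low parent was the strain with the high copies. Hmgb1 went another way, since its copy Gm13577 was called lower in WSB and not called in C3H. Hmgb1 had 33.3 ± 1.4 FPKM (SD, n = 3) in B6, 23.5 ± 2.8 in C3H and 23.2 ± 0.82 in WSB. It was called lower in both strains (limma adjusted p = 0.030 in C3H and 0.0046 in WSB).

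Reads of a parent and its listed copies were added up as scaled reads (FPKM times length in kilobases). The share of this sum that lay on the copies was under 10% for 58 of 59 parents in B6, the exception being Eno1b, whose sum in B6 was 1.14. It reached 10% for 22 parents in C3H and for 19 in WSB, with medians of 0.352% in B6, 2.74% in C3H and 3.19% in WSB. Gm15772 took 94.1%, 94.4% and 95.4% of the reads of itself and Rpl26 in the C3H mice and 0.147% to 0.302% in the other 6. Both Rpl12 copies together took 67.4%, 65.4% and 73.4% in WSB and 0.0444% to 0.190% elsewhere. Gm13736 took 48.0%, 47.6% and 48.0% of the reads shared with Srp9 in WSB. Gm9855 took 51.0% to 55.1% in C3H and 48.1% to 50.3% in WSB of those shared with Tdg.

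For some pairs the sum in the strain with the high copy overlapped that of B6. The Psmb5 and Gm3375 sum was 90.5 ± 3.9 scaled reads (SD, n = 3) in B6, 93.9 ± 6.7 in C3H and 94.3 ± 8.6 in WSB, and these ranges overlapped. The part of Psmb5 in it was 90.2, 54.1 and 55.3, and Psmb5 was called lower in both strains (limma adjusted p = 0.0040 and 0.010). Polr1d with Gm12751 gave 47.4 ± 2.0 in B6, 48.7 ± 2.1 in C3H and 44.9 ± 2.7 in WSB, with Polr1d itself at 47.4, 31.2 and 44.9. Actg1 with its 2 copies gave 655 ± 9.1 in B6 and 658 ± 9.0 in WSB, while C3H, where neither copy was called, lay above B6 without overlap at 760.4 ± 59.

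For other genes the sum was lower in a strain with the high copy. Enolase reads summed over Eno1, Eno1b and Gm4735 were 1013 ± 57 in B6, 962 ± 111 in C3H and 813 ± 32 in WSB. Every WSB mouse lay below every B6 mouse in this sum, while the C3H mice overlapped those of B6. Rpl29 with its 3 copies went from 231 ± 17 in B6 to sums of 79.3 ± 9.3 for C3H and 65.2 ± 3.4 for WSB. Adding the 63 other pseudogenes that closely match these copies brought the sums to 242 ± 17, 91.1 ± 11 and 77.0 ± 4.2. Hmgn2 with Gm10357 gave 70.8 ± 2.1, 19.7 ± 1.7 and 19.4 ± 0.64. Tdg with Gm9855 gave 39.7 ± 0.70, 20.2 ± 1.4 and 19.0 ± 0.68. Rnps1 with Gm9825 gave 125 ± 3.9, 73.7 ± 1.7 and 72.5 ± 4.2. In C3H, Rpl26 with Gm15772 gave 142 ± 7.3 against 216 ± 5.0 in B6, and in WSB Rpl12 with its copies gave 139 ± 10 against 199.9 ± 17 in B6. Srp9 with Gm13736 gave 47.3 ± 5.0 in WSB against 79.0 ± 2.7 in B6. Over the 59 parents the sum of C3H mice lay above that of B6 mice without overlap for 19 and below for 12, and that of WSB mice above for 6 and below for 17. Beside this, 28.9% of all genes tested did not overlap for C3H against B6 and 26% for WSB against B6. Of the 59 parents taken without their copies, 37 and 27 did not overlap. Whether reads were lost, placed elsewhere or never made was not tested, and reads that fit more than 1 place were not analysed here.

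**Figure D4:**
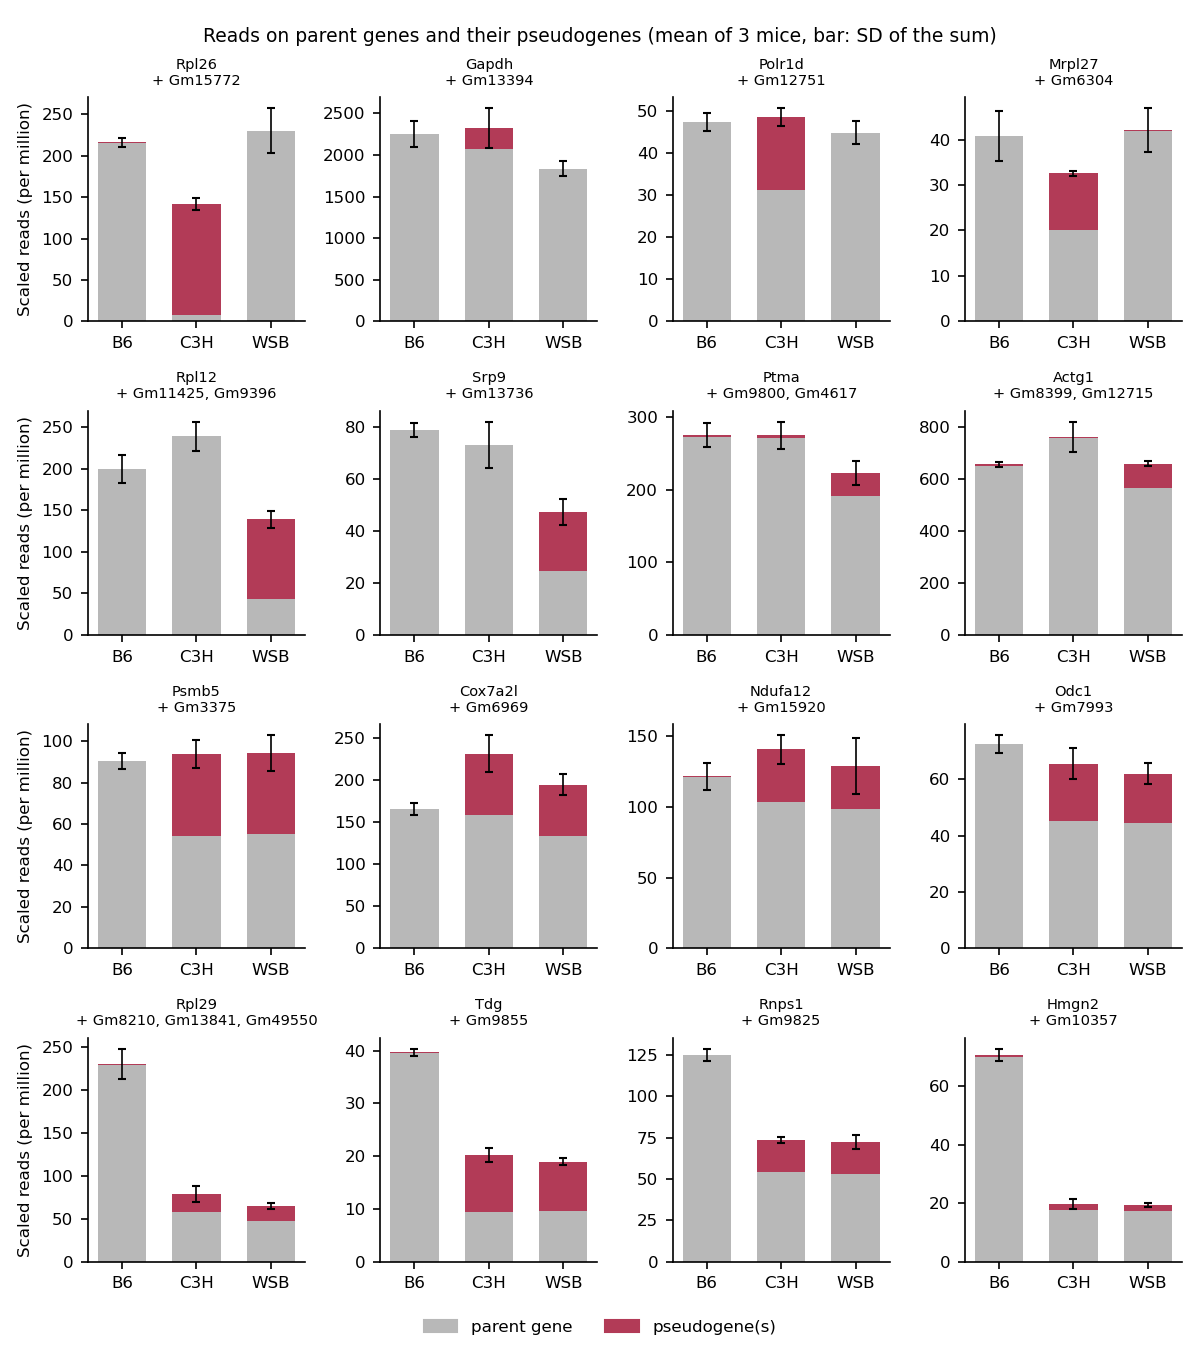
Scaled reads (FPKM times length in kilobases, linear axes from 0) on 16 parent genes (grey) and on their listed pseudogenes (red), stacked, as means of 3 mice with the SD of the sum. The red part of Rpl26 fills most of the C3H bar and that of Rpl12 most of the WSB bar. The bars of Psmb5 keep their height across strains, and those of Rpl29, Tdg, Rnps1 and Hmgn2 are lower in C3H and WSB than in B6.

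Other parents of high copies missed the threshold or were higher. Gapdh had 543 ± 38 FPKM (SD, n = 3) in B6 and 502 ± 52 in C3H (limma adjusted p = 0.53), where Gm13394 took 10.8 ± 0.62% of the sum. Cox7a2l had 144 ± 6.3 FPKM in B6, 138 ± 16 in C3H and 116 ± 13 in WSB (limma adjusted p = 0.70 and 0.11), with every WSB mouse below every B6 mouse, and its sum with Gm6969 rose from 166 ± 7.1 scaled reads to 232 ± 22 and 195 ± 13. Ndufa12 missed the threshold too, at 77.3 ± 6.1, 65.9 ± 4.0 and 62.8 ± 9.5 FPKM, although every C3H mouse lay below every B6 mouse. Glo1, which detoxifies methylglyoxal, was higher in C3H at 112 ± 6.1 FPKM than in B6 at 47.2 ± 2.2 (limma adjusted p = 0.00010), and its copy Gm13443 took 1.16% of the sum there and 3.08% in WSB.

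Likeness to a coding transcript was set beside that of the Gm-named processed pseudogenes below the limit, with 1 fast search for all, which found a close parent for 67 of the 73. This was 91.8% of the listed pseudogenes, 58.8% of the 2610 with reads below 3 FPKM and 30.1% of the 5591 without reads. A close parent at 97% identity or more was found for 82.2%, 26.4% and 4.79%. The median level of the close parents was 95.3, 26.8 and 14.9 FPKM. The level chose the list, so these shares are a description without a test.

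**Figure D5:**
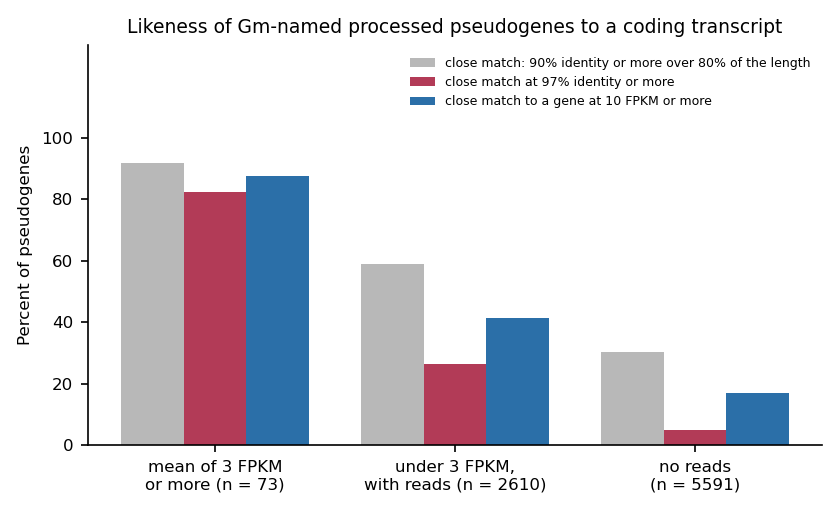
Percent of Gm-named processed pseudogenes (y axis) with a close match to a coding transcript (grey), with a close match at 97% identity or more (red) and with a close match to a gene at 10 FPKM or more (blue), for the 73 listed, the 2610 below 3 FPKM with reads and the 5591 without reads. All 3 bars are highest for the 73 and lowest for those without reads.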

How the data were processed

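Cortex RNA of 9 mice, 3 per strain, was sequenced in pairs of 150 bp reads. The authors trimmed reads with Cutadapt, and the submitters' processing notes name STAR, HTSeq and DESeq2. Their versions, the handling of reads that fit several places, and strandedness are not given in the sources used here. The values deposited by the authors are FPKM per gene and library, 1 column per mouse. Values times gene length were whole multiples of 1 read for every gene (tolerance 0.001), which gave the reads quoted here. Rescaling by median ratios left the calls unchanged in number, and FPKM were used as deposited.

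Each pair of strains was compared with limma 3.58.1 (R 4.3.3, empirical Bayes with a trend, two-sided, no covariate) of log2(FPKM + 0.1). Genes averaging 0.1 FPKM or more across both strains entered, with Benjamini-Hochberg adjustment over all genes tested. The limma test and its filter, but not the other steps, were tried on simulated counts for B6 and WSB. Fold changes on this scale understate those of low genes. Parents were found with blastn 2.17.0 in GENCODE M21 transcripts. Python 3.11.15, pandas 2.3.3, scipy 1.17.1 and matplotlib 3.10.9 were used. Per-mouse values and tests were given for the 5 highest pseudogenes, those next to the limit, up to 8 with the largest rise and fall per comparison without overlap, up to 12 called the same way against B6 in both strains, and the highest of each parent group with at least 3 members. Others were given by their means to account for the list, and 1 pseudogene is counted but its values are not reported here. The members and lists were chosen with earlier results of these data known. Alternatives changed the pseudocount, filter, scaling, weights, GC trend, samples in the fit, replicate block and mice included.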

Additional observations from a re-analysis of the deposited data

How the results depend on the processing

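The number of pseudogenes called stayed within 1.5 times its reported value under all alternatives run. For C3H against B6 it was 37 and ranged from 33 to 37 under the 10 other settings and from 29 to 35 with 1 mouse left out. For WSB against B6 it was 40, with ranges of 37 to 40 and 31 to 35, and for WSB against C3H 30, with ranges of 29 to 32 and 25 to 30. Of 65 results for single pseudogenes, 56 kept their call under all 16 alternatives and none changed direction. The calls lost most often were Gm13577 for WSB against B6 (13 of 16), Gm14719 for WSB against C3H (10) and Gm14539 for C3H against B6 (9). Over all genes the counts moved more: 956 genes were called for C3H against B6, 1727 without C3H replicate 2 and 434 to 471 without any 1 of the other 5 mice. For WSB against B6 it was 1224 genes and 584 to 740 without any 1 of the 6 mice, the fewest without B6 replicate 2. For WSB against C3H it was 1182 genes, 1616 without C3H replicate 2, 416 without C3H replicate 1, 448 without C3H replicate 3 and 480 to 569 without 1 of the WSB mice. With voom weights on recovered reads, 1488 and 1757 genes were called for C3H against B6 and for WSB against C3H.

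The labels number the mice of each strain alike, and deviations of mice with the same number correlated between -0.16 and 0.04. This gave no sign that the numbers pair the mice, but with 3 mice per strain it cannot exclude it. With the replicate block, 35 pseudogenes were called for C3H against B6, 37 for WSB against B6 and 29 for WSB against C3H, and 480, 754 and 531 genes in all. Read pairs that lie wholly inside a copy identical to its parent cannot be told apart from those of that parent. Levels of a few reads per library limit the precision of the B6 values.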

Other observations

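Replicate 3 of C3H and of WSB stood apart for Gm13841, a copy of Rpl29 singled out after its values were seen. Its annotated sequence is identical to that of Gm8210, so the level of Gm13841 is one of assigned reads and not of a locus told apart. The copies of Rpl29 took 35.0% of the reads of copies and parent in C3H replicate 3 against 20.5% and 22.0% in the other C3H mice, and 42.2% in WSB replicate 3 against 20.97% and 18.8% in the other WSB mice. B6 mice had 0.577% to 0.754%. No test was made of this difference.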
